A study of Mus musculus with 6 samples.

Results

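The expression of 8 genes of cholesterol synthesis and its sterol-controlled regulation was examined in RNA sequencing of mouse pancreatic islets: Srebf2, Insig1, Hmgcs1, Idi1, Fdps, Sqle, Lss and Msmo1. They were chosen by symbol from the deposited table of 54556 genes, which held all 8. The 6 libraries came from C57BL/6 mice on normal chow at 8 weeks of age. There were 3 libraries labelled β-Mettl3-KO (Mettl3 flox/flox with RIP-Cre, Cre under the rat insulin promoter) and 3 of Mettl3 flox/flox mice, so every library carried the floxed allele and none was labelled with Cre alone. The comparison asks what deleting Mettl3, the catalytic subunit of the enzyme that writes N6-methyladenosine (m6A) on mRNA, does to islet gene expression. Pooling of animals is not stated in the labels, and nothing ties a library to its own mouse, so the spread behind each p-value is one between libraries and may be technical.

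Cells make cholesterol from acetyl-CoA through mevalonate, isoprenoids, squalene and lanosterol. The transcription factor SREBP-2, made from Srebf2, is held in the endoplasmic reticulum by its escort SCAP and by INSIG proteins when sterols are plentiful. When sterols run low it is carried to the Golgi, cut by proteases and released to switch on nearly every gene of the pathway, so these genes often move together. In β cells membrane cholesterol is known to affect insulin granules and exocytosis. None of the 8 genes encodes a lipoprotein receptor. Uptake genes are therefore described from a separate list.

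Levels are scaled FPKM, a measure per gene length that corrects for library size, and depth was 16398862 to 18387313 recovered reads per library. Differences are those of the labelled-KO libraries minus the flox/flox libraries on the log2(FPKM + 0.5) scale, tested with limma across 14497 genes and called where the p adjusted by Benjamini and Hochberg's method was under 0.05. The insulin genes were abundant in every library. The 8 β-cell markers summed to 111451 to 124745 scaled FPKM in the labelled-KO libraries and 255943 to 317902 in the flox/flox libraries. Of these, 7 of 8 were lower, against 17.2% of all tested genes. Mettl3 itself had 4.06, 4.20 and 4.15 scaled FPKM in the labelled-KO libraries, against 3.42, 2.89 and 3.93 in the flox/flox libraries (log2 difference 0.25 ± 0.11 SE, adjusted p = 0.12), so it was not lower as the label would have it, and the libraries are called labelled-KO throughout. The labels do not name the floxed exons, and reads of a transcript that lacks them still count for the gene. Mettl3 overlaps Tox4 on the opposite strand, whose reads cannot be told apart from it without strand. In bulk islets, fewer cells of a type and less RNA per cell cannot be told apart. By construction of the scaling, the typical gene shows no change. Scaling each library to its own total of reads instead moved the median of all genes by 0.37 on the log2 scale and turned 2446 higher and 2489 lower genes into 7643 and 709, so each difference given here is relative to the typical gene.

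The promoter sequences of 6 of the 8 genes were in the RefSeq table (GRCm38.p6), as windows from 250 bases before to 50 bases after the start site. They are shown for the elements that SREBP-2 and its partner NF-Y, a factor that binds CCAAT, are known to use. Each motif was searched on both strands. All 6 windows held CCAAT, against 37.1% of the 12442 windows of tested genes, and all 6 held the GC box GGGCGG that Sp1 binds, against 61.3%. The sterol regulatory element core TCACNCCAC was found in Hmgcs1 alone among the 6, against 1.10% of tested genes' windows. Insig1 alone held the E-box CACGTG, against 9.87%. No motif match overlapped another in these windows. The stretch before the Hmgcs1 start site (chr13:119690171-119690350, plus strand, GRCm38.p6) is printed with the sterol element and CCAAT boxes in capitals, the boxes reading ATTGG where they lie on the opposite strand:

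Hmgcs1: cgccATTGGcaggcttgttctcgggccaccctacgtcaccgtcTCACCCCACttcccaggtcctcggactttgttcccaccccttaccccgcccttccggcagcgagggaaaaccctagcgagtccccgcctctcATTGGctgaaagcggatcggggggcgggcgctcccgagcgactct

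The nearest CCAAT box whose flanks also lay before the start site is shown for the other 5 genes, to compare its setting and orientation, with the box in capitals. The Msmo1 and Idi1 windows lie inside exons that GENCODE M21 annotates, and the transcript and strand of those exons were not recorded.

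Msmo1: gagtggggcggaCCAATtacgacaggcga

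Idi1: tgcctccagctgATTGGcgagcccgggca

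Lss: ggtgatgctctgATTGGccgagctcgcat

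Insig1: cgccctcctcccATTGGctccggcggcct

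Srebf2: cttcgcgcgccgATTGGctaatgcaagcc

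These boxes lay at chr8:64733617-64733645 (minus strand) for Msmo1, chr13:8885549-8885577 (plus strand) for Idi1 and chr10:76531531-76531559 (plus strand) for Lss. Those of Insig1 and Srebf2 lay at chr5:28071184-28071212 and chr15:82147122-82147150, both on the plus strand. Counted from the start site, the box began at -45 in Hmgcs1 and Idi1, -55 in Msmo1 and -62 in Lss. It began farther out in Srebf2 and Insig1, at -135 and -216. Msmo1 was the only one of the 6 with the box in the sense orientation. A match is a description of these letters and not a measured binding site.

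The 8 genes did not move as a block. Of the 7 that passed the filter at a mean of 1 scaled FPKM, Hmgcs1 rose, Msmo1 fell and 5 did not pass, while Fdps was too low to be tested. This is 28.6% of those tested, against 34.0% of all tested genes called in either direction, 16.9% higher and 17.2% lower, so the share called was near the background. Without labelled-KO replicate 3 limma called 0 of the 7 (2 at an unadjusted p under 0.05), and own-total scaling called 4 higher and 0 lower. The groups did not overlap for 4 of the 7, against 50.5% of all tested genes. The median log2 difference of the 7 was 0.02, against -0.0045 over all tested genes, and the single differences ran from -0.38 to 0.39. Summed over the 8 genes, the level was 101, 84.1 and 89.7 scaled FPKM in the labelled-KO libraries and 104, 86.7 and 94.9 in the flox/flox libraries (exact two-sided permutation p = 0.60). With 3 libraries against 3 this test cannot go below 0.10. Insig1 alone made up 34.1% to 37.1% of the sum in the labelled-KO libraries and 39.1% to 42.9% in the flox/flox libraries, so the sum weighs it most.

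**Figure D1:**
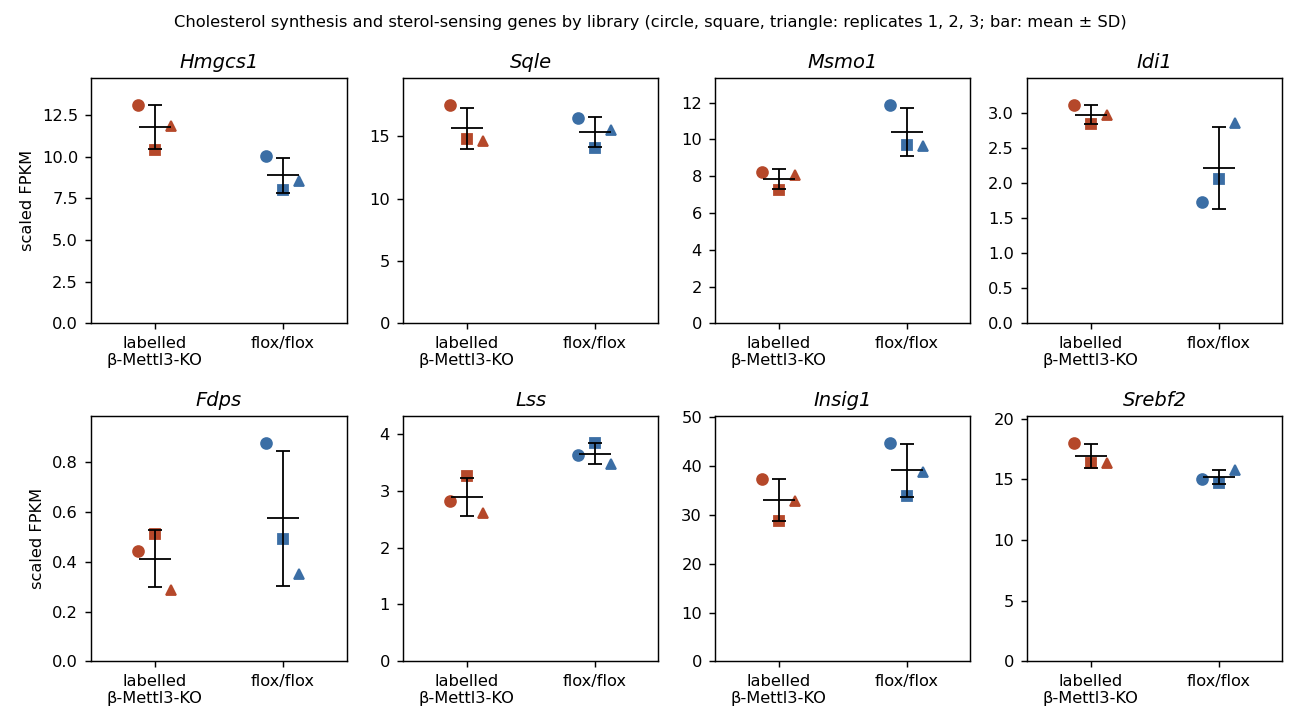
Scaled FPKM of the 8 genes (vertical axes, each from 0) in the 3 libraries labelled β-Mettl3-KO (red, left) and the 3 flox/flox libraries (blue, right); symbols mark replicates and bars the mean ± SD. Hmgcs1 and Srebf2 sit higher in all 3 labelled-KO libraries, Msmo1 and Lss sit lower, and the groups overlap for the other 4.

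Srebf2, which encodes SREBP-2 and lies on chromosome 15 from 82147181 to 82205379 (GRCm38), stood at 18.03, 16.4 and 16.4 scaled FPKM in the labelled-KO libraries, against 15.0, 14.7 and 15.8 in the flox/flox libraries. The groups did not overlap, but the log2 difference of 0.15 ± 0.07 (SE) did not pass the threshold (adjusted p = 0.132, 95% interval -0.01 to 0.31). Its intronic microRNA gene Mir33, a known repressor of cholesterol efflux genes, had 0 reads in either group in these gene-level counts. It overlaps Srebf2 on the same strand, and whether these libraries capture small RNAs was not known here. The 0 therefore says nothing of the level of the microRNA. Insig1, which retains the SREBP-SCAP complex and is itself an SREBP target, was the most abundant of the 8. It stood at 37.3, 28.7 and 32.9 scaled FPKM in the labelled-KO libraries and at 44.8, 33.9 and 38.7 in the flox/flox libraries. These groups overlapped, and the difference of -0.24 ± 0.13 did not pass (adjusted p = 0.204, 95% interval -0.56 to 0.08). With the replicate number as a block it passed in limma (adjusted p = 0.0319).

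Hmgcs1, the cytosolic HMG-CoA synthase that feeds the mevalonate pathway, rose. The gene (ENSMUSG00000093930, chromosome 13 from 119690379 to 119708260) had 13.1, 10.4 and 11.9 scaled FPKM in the labelled-KO libraries, against 10.04, 8.02 and 8.56 in the flox/flox libraries. Every labelled-KO library lay above every flox/flox library, by a narrow margin between the lowest and the highest. The log2 difference was 0.39 ± 0.11 (SE, adjusted p = 0.0399), a fold of 1.31 with a 95% interval of 1.08 to 1.58. The call was lost without labelled-KO replicate 1 or 3 or flox/flox replicate 2 or 3 (adjusted p = 0.1 to 0.115), with no filter (adjusted p = 0.0795) and with no variance trend (adjusted p = 0.0568). An antisense gene, Gm48342, overlaps it but had 25 reads in the 3 labelled-KO libraries and 17 in the 3 flox/flox libraries, against 532 to 1252 reads of Hmgcs1 per library.

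Idi1, the isomerase that makes the isoprenoid dimethylallyl diphosphate, did not pass. Its level was 3.12, 2.84 and 2.97 scaled FPKM in the labelled-KO libraries and 1.73, 2.05 and 2.86 in the flox/flox libraries. Flox/flox replicate 3 reached the labelled-KO values and the groups overlapped. The difference of 0.38 ± 0.16 (SE) had an adjusted p of 0.113 and a 95% interval of -0.01 to 0.76. Without flox/flox replicate 3 it was 0.54 and passed in limma (adjusted p = 0.0294). With own-total scaling of all 6 libraries it was 0.72 and also passed in limma (adjusted p = 0.00968), or 0.35 relative to the median gene. The call thus depended on this library and on the scaling.

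Fdps, the synthase of farnesyl diphosphate from which squalene is made, had 0.445, 0.510 and 0.286 scaled FPKM in the labelled-KO libraries and 0.880, 0.493 and 0.352 in the flox/flox libraries. These are 39, 42 and 25 reads against 56, 30 and 22, and the groups overlapped. Its low level per length stood apart from its neighbours in the pathway, such as Fdft1 (squalene synthase) at 13.4 to 17.1 in the labelled-KO libraries and 13.4 to 16.3 in the flox/flox libraries (named after its values were seen). Of the distinct stretches of 50 bases in its GENCODE M21 transcripts, 26.2% also occurred in transcripts of other genes. Gm43738, which overlaps Fdps on the same strand and had 0 reads in either group, held 23.4% of the stretches. The processed pseudogenes Gm3571 and Gm5873 held 12.1% and 5.53%, and a stretch can occur in several of these genes. Gm3571 had 180 reads in the labelled-KO libraries and 156 in the flox/flox libraries. Idi1 shared 25.3% of such stretches, mostly with the pseudogene Gm13502 (15 reads in the labelled-KO libraries and 20 in the flox/flox libraries), Hmgcs1 11.6%, and the other 5 members 0.0358% to 2.17%. Reads shared with copies or overlapping genes can be split or dropped by the authors' counting. The levels of Fdps and Idi1 are therefore uncertain, and the part of shared reads in their low values was not tested.

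Sqle, squalene epoxidase, catalyses a rate-limiting oxygen-dependent step after squalene, and had the smallest difference between the groups of the 7 tested genes. It had 17.5, 14.7 and 14.6 scaled FPKM in the labelled-KO libraries, against 16.4, 14.1 and 15.5 in the flox/flox libraries. The groups overlapped, and the difference was 0.02 ± 0.10 (SE, adjusted p = 0.87). Relative to the typical gene, its 95% interval ran from a fold of 0.866 to 1.19. With own-total scaling the difference was 0.42 and passed in limma (adjusted p = 0.00664), or 0.05 relative to the median gene. Lss, lanosterol synthase, which closes the sterol rings, stood at 2.81, 3.26 and 2.61 in the labelled-KO libraries and at 3.63, 3.84 and 3.47 in the flox/flox libraries. Its groups did not overlap, and its difference of -0.29 ± 0.10 missed the threshold (adjusted p = 0.0626). It passed without labelled-KO replicate 2 (-0.37, adjusted p = 0.04) and with quantile normalization (-0.39, adjusted p = 0.0251).

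Msmo1, the methylsterol monooxygenase that begins the removal of methyl groups downstream of lanosterol, fell. The gene (ENSMUSG00000031604, chromosome 8 from 64718139 to 64733792) had 8.24, 7.24 and 8.07 scaled FPKM in the labelled-KO libraries, against 11.9, 9.69 and 9.62 in the flox/flox libraries. All 3 labelled-KO libraries lay below all 3 flox/flox libraries. The log2 difference was -0.38 ± 0.10 (SE, adjusted p = 0.0299), a fold of 0.768 with a 95% interval of 0.649 to 0.91. The call was lost without labelled-KO replicate 2 or 3 or flox/flox replicate 1 or 3 (adjusted p = 0.0501 to 0.08) and with no filter (adjusted p = 0.0595), and with own-total scaling the difference was 0.0046, or -0.36 relative to the median gene.

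Hmgcs1 and Msmo1 are targets of the same factor and moved in opposite directions, and their ratio within a library does not depend on how libraries are scaled. Hmgcs1 stood at 1.59, 1.44 and 1.47 times Msmo1 per length in the labelled-KO libraries, against 0.845, 0.827 and 0.890 times in the flox/flox libraries. The deposited lengths are 4594 bases for Hmgcs1 and 6144 for Msmo1, whose longest coding transcripts hold 3464 and 2044. Which of these genes is higher therefore depends on the length used, while the fold between the groups does not. Ratios of other gene pairs depend on the lengths in the same way. The pair was chosen for its opposite differences after the values were seen, so the separation of the ratios is a description that the choice fixes. In the order of mean levels Insig1 led and Fdps was lowest in both groups. Srebf2 and Sqle came next with overlapping values, exchanging places between the groups. Idi1 and Lss overlapped in the labelled-KO libraries, while Lss was above Idi1 in all flox/flox libraries. These levels use deposited gene lengths of 5546 bases for Sqle, 7184 for Srebf2, 10787 for Lss and 3505 for Idi1. Their longest coding transcripts hold 2758, 5077, 4667 and 3027 bases. The order between genes and its overlaps therefore depend on the length used.

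**Figure D2:**
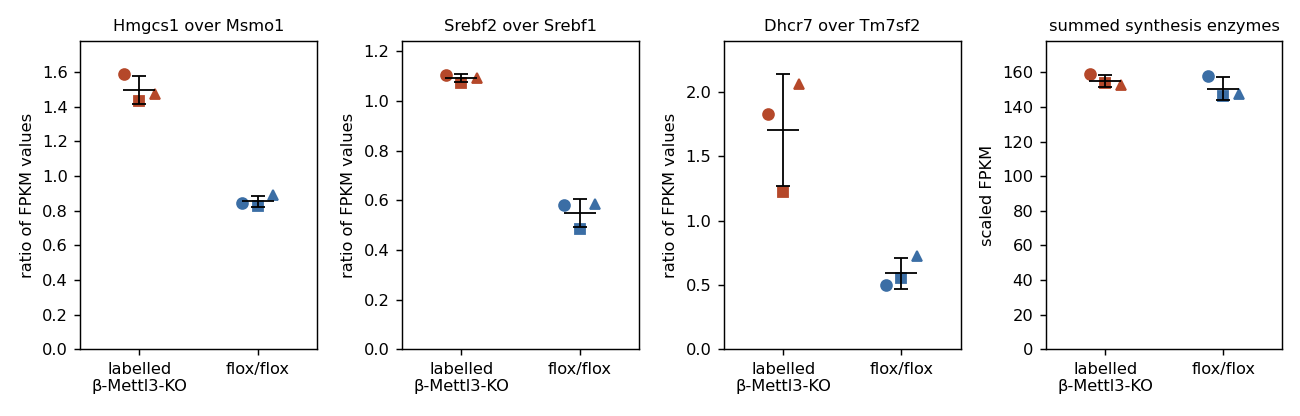
Ratios of FPKM within each library for 3 pairs of genes and, at the right, the summed scaled FPKM of 21 synthesis enzymes (vertical axes, each from 0), in the libraries labelled β-Mettl3-KO (left) and flox/flox (right), with mean ± SD. With the deposited gene lengths, the Hmgcs1 over Msmo1 ratio is 1.44 to 1.59 against 0.827 to 0.890, while the sums overlap.

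Within each group the genes also varied from library to library. Labelled-KO replicate 1 was the highest of its group for 6 of the 8 genes, and flox/flox replicate 1 was the highest of its group for 5. Insig1, Hmgcs1, Sqle and Msmo1 were highest in replicate 1 of both groups. Insig1 differed between labelled-KO replicates 1 and 2 by 37.3 against 28.7 scaled FPKM, more than its difference between the group means of 33.0 and 39.1. Flox/flox replicates 1 and 2 had 44.8 and 33.9, and at each replicate number the labelled-KO library lay below the flox/flox library. Markers of some other cells moved between the same libraries. The 12 enterocyte markers summed to 141, 767 and 406 scaled FPKM in labelled-KO replicates 1 to 3 and to 46.1 to 57.2 in the flox/flox libraries. Of these, 11 of 11 tested were higher, against 16.9% of all tested genes, and Alpi and Krt20 were at 0 in every flox/flox library. The 10 lymphocyte markers summed to 230 to 280 in the labelled-KO libraries and 7.74 to 12.9 in the flox/flox libraries, with 9 of 9 tested higher. A marker near 0 in the flox/flox libraries reaches the filter only through the labelled-KO libraries, so calls of such markers support nothing. The 8 acinar markers summed to 552, 300 and 400 in labelled-KO replicates 1 to 3 and to 644, 1994 and 1045 in flox/flox replicates 1 to 3, with 7 of 8 lower. The 6 endothelial markers summed to 281 to 319 in the labelled-KO libraries and 558 to 572 in the flox/flox libraries, with 6 of 6 lower. Of all tested genes, 17.2% were lower. The 4 genes listed as hepatocyte markers summed to 1293 to 1649 in the labelled-KO libraries and 875 to 1126 in the flox/flox libraries, with 1 of 3 tested higher. Cyp7a1 was at 0 in every flox/flox library. Whether islet cells express these genes was not tested, so the sum is no measure of hepatocytes. The 5 α-, δ- and PP-cell markers summed to 11652 to 17358 and 11784 to 16722, with 0 of 4 tested called. The 5 macrophage markers summed to 114 to 152 and 100 to 120, with 1 of 5 higher and 1 lower. Hmgcs1 was lowest in labelled-KO replicate 2, where enterocyte markers were highest, and the part of these cells in its rise was not tested.

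Across the whole pathway from acetoacetyl-CoA to cholesterol, 2 of 20 tested enzymes rose, 2 fell and 16 did not pass, with a median log2 difference of 0.11. This is 20% of those tested, against 34.0% of all genes. Besides Hmgcs1, the rise was in Dhcr7, the last-step sterol reductase, at 4.11, 4.20 and 4.68 scaled FPKM in the labelled-KO libraries and 2.97, 2.93 and 3.47 in the flox/flox libraries (0.42 ± 0.10 SE, adjusted p = 0.0175). Besides Msmo1, the fall was in Tm7sf2, a sterol C14 reductase, at 2.25, 3.43 and 2.27 in the labelled-KO libraries and 5.97, 5.31 and 4.77 in the flox/flox libraries (-0.91 ± 0.16, adjusted p = 0.00732). Tm7sf2 passed in all 6 fits that left out 1 library, and Dhcr7 in 4 of 6, the exceptions being labelled-KO replicate 3 (adjusted p = 0.0748) and flox/flox replicate 1 (adjusted p = 0.0534). Dhcr7 stood at 1.83, 1.23 and 2.06 times Tm7sf2 per length in the labelled-KO libraries, against 0.497, 0.551 and 0.728 times in the flox/flox libraries (a ratio chosen after the values were seen). Hsd17b7, the sterol 3-keto reductase, had the highest difference of the list at 0.66 ± 0.21 but missed the threshold (adjusted p = 0.0512; named after its value was seen). Lbr, the lamin B receptor that carries the same C14 reductase activity, did not pass (adjusted p = 0.128; named after its value was seen). The summed level of the 21 enzymes was 155 ± 3.39 scaled FPKM in the labelled-KO libraries and 150.5 ± 6.57 in the flox/flox libraries (SD, n = 3 each, exact two-sided permutation p = 0.30). Own-total scaling called 15 of 20 higher and 1 lower, the lower one being Tm7sf2. The 4 calls became 1 without labelled-KO replicate 3 and 2 without flox/flox replicate 1. Without labelled-KO replicates 2 and 3, where enterocyte markers summed highest, 0 were called higher and 1 lower, but 1 labelled-KO library is then left, assumed to vary like the flox/flox libraries, and the drop says nothing of enterocyte reads.

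**Figure D3:**
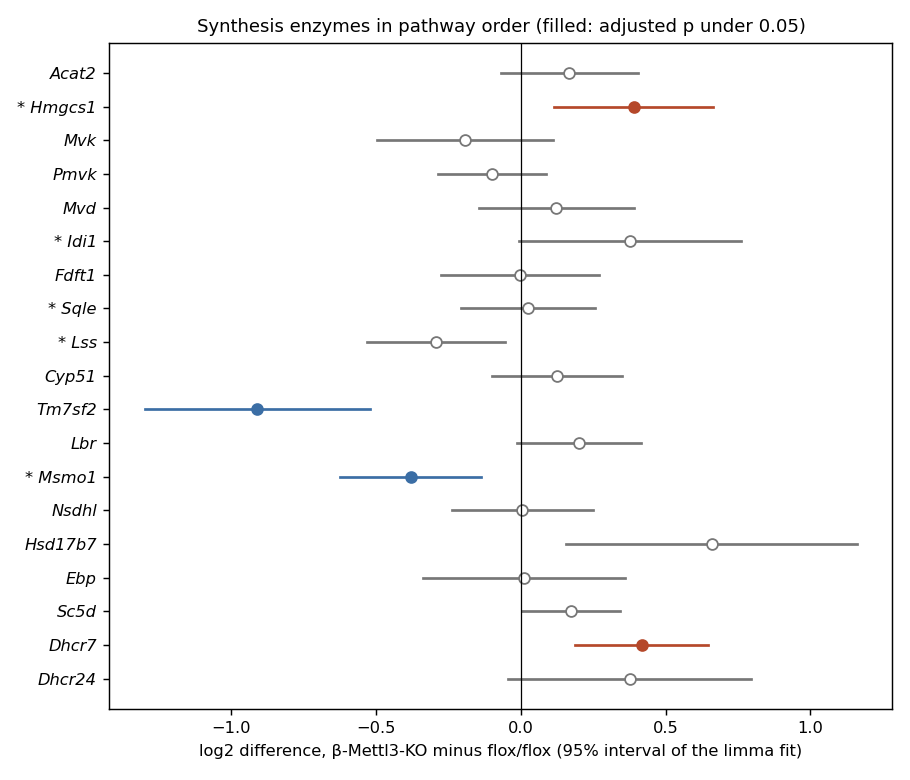
Log2 difference of labelled β-Mettl3-KO minus flox/flox libraries (horizontal axis) with 95% intervals for tested synthesis enzymes in pathway order from top to bottom; members of the 8 carry an asterisk, and filled points passed an adjusted p under 0.05. Hmgcs1 and Dhcr7 lie above 0, Msmo1 and Tm7sf2 below, and the others shown have open points.

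In the list of sterol-sensing genes, which holds Srebf2 and Insig1, 6 of 16 rose, 2 fell and 8 did not pass, with a median of 0.17; own-total scaling called 13 higher and 1 lower. This is 50% of those tested, against 34.0% of all genes. The 8 calls became 4 (2 higher and 2 lower) without labelled-KO replicate 3, 5 without labelled-KO replicate 1 or flox/flox replicate 3, and 5 when genes needed 5 FPKM. Srebf1, which encodes SREBP-1, the fatty acid synthesis factor of the family, fell to 16.3, 15.2 and 15.0 scaled FPKM in the labelled-KO libraries, against 25.9, 30.4 and 27.0 in the flox/flox libraries (-0.82 ± 0.08 SE, adjusted p = 0.000847). This call held in all 6 fits without 1 library and with own-total scaling (-0.42). Srebf2 stood at 1.11, 1.07 and 1.09 times Srebf1 per length in the labelled-KO libraries, against 0.58, 0.485 and 0.585 times in the flox/flox libraries, a ratio chosen after the values were seen. Sp1, a partner factor of SREBPs, rose by 0.46 ± 0.07 (adjusted p = 0.00309). Erlin2, an endoplasmic reticulum protein that takes part in sterol-controlled degradation, rose by 0.42 ± 0.09 (adjusted p = 0.016). Sp1 passed in all 6 fits without 1 library and Erlin2 in all but the one without labelled-KO replicate 3 (adjusted p = 0.059). Insig2 and Scap, named as the partners of Insig1 in sterol sensing after their values were seen, did not pass (adjusted p = 0.713 and 0.847).

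Among the 17 genes of cholesterol uptake and transport, 5 rose, 3 fell and 9 did not pass, with a median of 0.08; own-total scaling called 11 higher and 0 lower. This is 47.1% of those tested, against 34.0% of all genes. The 8 calls became 3 (1 higher and 2 lower) without labelled-KO replicate 3 or flox/flox replicate 3. They became 5 without labelled-KO replicate 2 or flox/flox replicate 1 or 2, 5 with no filter and 4 when genes needed 5 FPKM. The sterol transfer proteins Gramd1a and Gramd1b went opposite ways, with Gramd1a falling by 0.54 ± 0.09 and Gramd1b rising by 0.56 ± 0.11 (adjusted p = 0.00643 and 0.0119), though the fall of Gramd1a was lost with own-total scaling (-0.14, adjusted p = 0.249).

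Npc1l1, the transporter that absorbs cholesterol in the gut, stood at 0.666, 5.88 and 2.86 scaled FPKM in labelled-KO replicates 1 to 3, against 0.0296, 0.108 and 0.0151 in the flox/flox libraries. In the efflux and storage list 4 of 12 tested genes rose, 3 fell and 5 did not pass, with a median of 0.22; own-total scaling called 8 higher and 0 lower. This is 58.3% of those tested, against 34.0% of all genes. The 4 rises became 0 without labelled-KO replicate 3. They became 1 without labelled-KO replicate 2 or flox/flox replicate 1 or 3, 1 with quantile normalization and 1 when genes needed 5 FPKM. Soat2, the sterol esterifying enzyme of enterocytes and hepatocytes, was at 0.564, 6.61 and 3.53 in the labelled-KO libraries and at 0.0896, 0.125 and 0 in the flox/flox libraries. Abcg5, a sterol exporter of the same cells, was at 0.672, 5.26 and 3.02 in the labelled-KO libraries, against 0.0244, 0 and 0 in the flox/flox libraries (38, 279 and 170 reads against 1, 0 and 0). These 3 reached the filter only through the labelled-KO libraries, so they are given as levels, and their calls, 1 of the 5 rises of the uptake list and 2 of the 4 of the efflux list, support nothing. Their fitted log2 differences of 2.41, 2.46 and 2.50 for Npc1l1, Soat2 and Abcg5 depended on the pseudocount, at 4.03, 3.96 and 4.45 with 0.1 and 1.75, 1.82 and 1.79 with 1. All 3 were lowest in labelled-KO replicate 1 and highest in replicate 2, the order of the enterocyte markers, the sums being 767, 406 and 141 for replicates 2, 3 and 1. Without labelled-KO replicate 2 they fell under the filter. The part of intestinal reads in them was not tested. Falls in this list were in Nr1h2, the liver X receptor β that senses oxysterols (-0.59 ± 0.08, adjusted p = 0.00228), and in Cyp46a1, cholesterol 24-hydroxylase (-0.68 ± 0.14, adjusted p = 0.0116). Both were lost with own-total scaling, at -0.19 and -0.34 (adjusted p = 0.0777 and 0.0619).

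**Figure D4:**
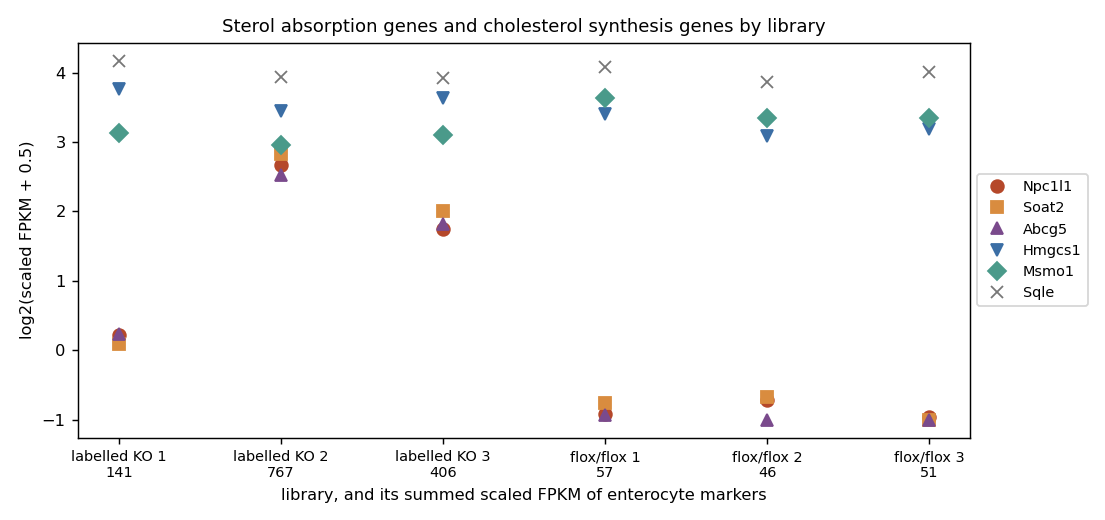
Level as log2(scaled FPKM + 0.5) of 3 intestinal sterol-handling genes (Npc1l1, Soat2, Abcg5) and of Hmgcs1, Msmo1 and Sqle in each library (horizontal axis, labelled-KO libraries left, flox/flox right), with the library's summed enterocyte-marker FPKM under its name. The 3 intestinal genes are highest in labelled-KO replicate 2, where that sum is 767, and Hmgcs1 is highest in replicate 1, where it is 141.

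Fatty acid synthesis genes, mostly known as SREBP-1 targets, were also mixed: 3 of 15 rose, 3 fell and 9 did not pass, with a median of -0.01; own-total scaling called 6 higher and 1 lower. This is 40% of those tested, against 34.0% of all genes. The stearoyl-CoA desaturases split. Scd1 rose to 6.10, 3.82 and 5.33 scaled FPKM in the labelled-KO libraries, against 1.49, 2.32 and 1.69 in the flox/flox libraries (1.25 ± 0.20 SE, adjusted p = 0.00452), and Scd2 fell to 11.9, 14.1 and 11.6, against 22.3, 25.7 and 23.4 (-0.90 ± 0.10, adjusted p = 0.00116). Pnpla3, a lipid droplet protein, rose by 0.78 ± 0.16 (adjusted p = 0.0109), and Elovl5, an elongase, fell by 0.57 ± 0.06 (adjusted p = 0.00125). Pnpla3 was lost without labelled-KO replicate 3 (adjusted p = 0.0533) and Elovl5 with own-total scaling (-0.17, adjusted p = 0.0676). The branch that takes isoprenoids to ubiquinone, dolichol and protein prenylation had 1 of 13 higher, 3 lower and 9 not past, with a median of -0.02; own-total scaling called 7 higher and 0 lower. This is 30.8% of those tested, near the 34.0% of all genes. The 4 calls became 1 with no filter, with no variance trend, and without labelled-KO replicate 3 or flox/flox replicate 1 or 2, and 2 without labelled-KO replicate 1 or flox/flox replicate 3. Coq2, of ubiquinone synthesis, fell by 0.43 ± 0.07 (adjusted p = 0.00594), and the prenyltransferase subunits Fnta and Rabggta fell by 0.33 ± 0.09 and 0.35 ± 0.10 (adjusted p = 0.034 and 0.0365), which with own-total scaling stood at -0.03, 0.067 and 0.035, none of them past the threshold. Icmt, which methylates prenylated proteins, rose by 0.31 ± 0.09 (adjusted p = 0.0387). Fnta, Rabggta and Icmt each passed in 1 of the 6 fits without 1 library.

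The letters GGACT, a common form of the m6A consensus, were counted in the longest protein-coding GENCODE M21 transcript of each gene (sense strand only). In pathway order, Srebf2 and Insig1 held 1.38 and 1.11 copies per kb, Hmgcs1 and Idi1 0.577 and 0, and Sqle, Lss and Msmo1 1.09, 2.36 and 1.96. The median over 11863 tested genes was 1.05 per kb, and 92.3% of them held at least 1 copy. Methylation was not measured here, and these counts describe letters; their relation to the differences was not tested.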

How the data were processed

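Total RNA of islets was made into libraries by an Illumina protocol, per the labels. The submitters' processing notes name HISAT2 2.0.5, featureCounts 1.5.0-p3, DESeq2 1.16.1 and the assembly GRCm38.p6, and neither their settings nor the strandedness was known here. The authors deposited FPKM per gene and library, beside each gene's length and position, per the file headers, and 0 per-sample columns were left unused. Multiplied by gene length, the values came out as whole numbers of a library's smallest step (within 0.1) for 100% of values, and these were read as reads. Median-of-ratios factors came to 1 throughout, so a scaling of that kind was already present.

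The filter kept genes whose mean reached 1 scaled FPKM. Differences on log2(FPKM + 0.5), a scale that understates changes of low genes, come from limma 3.58.1 (R 4.3.3, linear model, moderated variance with a trend). The fit was also run on simulated reads with a dispersion set the same for all genes and fewer changed genes than were called here. Those reads held no shift of the kind that own-total scaling shows, so that run does not measure the error of these calls. Other pseudocounts, filters, scalings and library subsets were tried. The members and lists were chosen with earlier results of these data known. Named are the 8 members, Mettl3, and per list up to 4 called genes with the largest difference; the 5 genes closest in profile were taken among those averaging 5 scaled FPKM or more. Other genes are marked as chosen after their values were seen. Some genes of the lists are counted but not reported by name here. A count of 0 allows up to 3 reads, counting error only.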

Additional observations from a re-analysis of the deposited data

How the results depend on the processing

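Over all genes, 4935 calls became 3090 when genes needed 5 FPKM, 8352 under own-total scaling, 2713 (without labelled-KO replicate 3) to 4213 without 1 library, and 1132 without labelled-KO replicates 2 and 3, a fit with 1 labelled-KO library assumed to vary like the flox/flox libraries. Of the 8 genes, 2 were called, against 0 with no filter, 4 with own-total scaling, 1 with no variance trend, 0 (without labelled-KO replicate 3) to 2 without 1 library and 0 without labelled-KO replicates 2 and 3. The 0 counts come from limma, the one tool run. At an unadjusted p under 0.05 the count was 4 of 8 with no filter and 2 of 7 without labelled-KO replicate 3 and 2 of 7 without both replicates. For the synthesis list 4 became 2 with no filter or when genes needed 5 FPKM, 16 under own-total scaling, 1 to 4 without 1 library and 1 without labelled-KO replicates 2 and 3. Its summed level in labelled-KO over flox/flox libraries was 1.03, and 1.36 with own-total scaling.

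Hmgcs1 lost its call with no filter and no variance trend at an unchanged 0.39 and without labelled-KO replicates 2 and 3 at 0.54; without 1 library it ran from 0.31 to 0.48. Msmo1 lost its call with no filter at -0.38 and without those replicates at -0.31, ran from -0.43 to -0.28 without 1 library and was 0.0046 with own-total scaling. Own-total scaling also gave 0.42 for Sqle, 0.72 for Idi1 and 0.55 for Srebf2, all past the threshold, and 0.058 for Lss and 0.16 for Insig1. This setting was built without the typical-gene centring; relative to its median gene the 7 differences were 0.41, 0.05, -0.36, 0.35, -0.31, -0.21 and 0.18 for Hmgcs1, Sqle, Msmo1, Idi1, Lss, Insig1 and Srebf2, an alternative chosen after the data were seen. Without 1 library Sqle ran from -0.058 to 0.073, Idi1 from 0.25 to 0.54 and Lss from -0.37 to -0.23. Lss passed with quantile normalization at -0.39. Fnta and Rabggta turned to 0.067 and 0.035 with own-total scaling. Of 103 values of the tested members under other settings, 78 kept their direction and their side of the threshold. Causes of the lost calls were not tested.

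Libraries with the same replicate number deviated together only weakly over all genes (r = 0.0811, 0.0751 and 0.0423 for numbers 1, 2 and 3). Each correlated best with its own number. The labels do not say whether a number marks a pair or a batch, and this was not tested. A limma fit with the replicate block made 4659 calls and passed 3 of the 7 tested members, 1 higher and 2 lower. Insig1 was among them at -0.24 ± 0.05 (SE, adjusted p = 0.0319). The block called 3 higher and 3 lower sterol-sensing genes, and 0 higher and 3 lower isoprenoid genes. Depth limits Fdps, with 22 to 56 reads per library.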

Other observations

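Genes whose profile over the 6 libraries lay closest to the mean profile of the 7 tested genes were Prkaa1, a catalytic subunit of the AMP-activated kinase, Ube2q2, Vps26b, Rundc1 and Syt13. Their root mean square distance on the log2(FPKM + 0.5) scale was 0.0208 to 0.0274, against 0.0449 for Sqle, the closest of the 7 genes themselves, and 0.259 for Idi1, the farthest. The mean profile averages members with differences of either sign, and it says nothing of shared function or control. Prkaa1 had 22.1, 19.8 and 20.4 scaled FPKM in the labelled-KO libraries and 21.9, 19.6 and 20.5 in the flox/flox libraries.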
